A study of Mus musculus with 12 samples.

Results

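Cells measure oxygen with a small set of enzymes and transcription factor subunits, and 10 genes that encode this set were described here over 4 conditions of a mouse bone cell line: the prolyl hydroxylases Egln1, Egln2 and Egln3, the asparaginyl hydroxylase Hif1an, the ubiquitin ligase subunit Vhl, the hypoxia-inducible factor (HIF) alpha subunits Hif1a, Epas1 and Hif3a, and their partners Arnt and Arnt2. The members were taken by gene symbol from the 56350 genes of the count table. Of the 10 genes, 9 were among the 16484 genes with enough counts to test, and Hif3a was not. The cells were MPC2, a clonal, conditionally immortalized mesenchymal progenitor line from mouse that divides at 33 °C and stops dividing at 37 °C. The mRNA libraries were sequenced for 12 samples, 3 in each of 4 conditions. Undifferentiated cells (MSCs) were kept at 33 °C, and osteocytes were the same line held for 3 weeks at 37 °C with beta-glycerophosphate and ascorbic acid, so that temperature and medium changed together with differentiation and cannot be told apart from it. Each cell type was given either DMSO vehicle or 50 µM FG-4592 (Roxadustat), an inhibitor of the HIF prolyl hydroxylases, for 48 hours. All libraries came from 1 line, and nothing in the labels says whether the 3 samples of a condition were separate cultures, so that the p-values measure the spread between these samples, which may be technical.

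When oxygen is plentiful, the Egln enzymes use it, together with iron and 2-oxoglutarate, to hydroxylate prolines of the HIF alpha subunits. VHL recognizes the hydroxylated protein as part of an ubiquitin ligase, and the proteasome destroys it, while Hif1an (also called FIH) hydroxylates an asparagine that would otherwise contact the coactivators p300 and CBP. When hydroxylation stops, alpha subunits accumulate, pair with ARNT and bind hypoxia response elements, whose core reads ACGTG or GCGTG, and Egln1 and Egln3 are textbook HIF targets in many cells. Most of this control acts on protein, which RNA counts do not show.

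The stretches just before the transcription starts of Egln1, Egln3 and Vhl, the 3 members with the largest called rise after FG-4592, and of Egln2, whose change did not pass the test, are printed here so that their core motifs can be compared. Each runs 5′ to 3′ on the strand of its gene and comes from RefSeq on GRCm38.p6, the assembly behind the mm10 coordinates of the counts, and the capitals mark ACGTG or GCGTG on either strand. The Egln1 stretch is chr8:124949325-124949504 on the minus strand, and the shorter one is chr8:124949305-124949334, which reaches into the first exon of the annotation used for the counts. The others are chr12:54203875-54204124 on the minus strand for Egln3, chr6:113623744-113623958 on the plus strand for Vhl and chr7:27166803-27167052 on the minus strand for Egln2.
Egln1: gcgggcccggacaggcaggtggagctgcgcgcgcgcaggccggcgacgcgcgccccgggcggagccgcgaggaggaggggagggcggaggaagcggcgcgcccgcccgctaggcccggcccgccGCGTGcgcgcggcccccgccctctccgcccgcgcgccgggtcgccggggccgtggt
Egln1, downstream match: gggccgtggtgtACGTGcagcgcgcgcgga
Egln3: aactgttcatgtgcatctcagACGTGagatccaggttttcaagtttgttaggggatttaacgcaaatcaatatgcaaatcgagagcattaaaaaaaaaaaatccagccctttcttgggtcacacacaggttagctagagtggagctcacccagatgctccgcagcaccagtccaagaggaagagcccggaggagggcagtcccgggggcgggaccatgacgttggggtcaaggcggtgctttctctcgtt
Vhl: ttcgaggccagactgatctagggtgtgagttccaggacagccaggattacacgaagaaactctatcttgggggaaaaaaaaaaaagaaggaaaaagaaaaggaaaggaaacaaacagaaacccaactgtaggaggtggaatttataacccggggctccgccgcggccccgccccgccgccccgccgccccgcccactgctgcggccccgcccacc
Egln2: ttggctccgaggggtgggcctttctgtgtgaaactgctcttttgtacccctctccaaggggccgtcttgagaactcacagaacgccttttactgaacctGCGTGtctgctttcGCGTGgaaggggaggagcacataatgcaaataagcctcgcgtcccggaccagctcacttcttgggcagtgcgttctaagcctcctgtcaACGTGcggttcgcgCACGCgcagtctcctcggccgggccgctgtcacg

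In the 250 bases before each RefSeq start, Egln2 held 4 matches at its upstream start, Egln1 held 2, Egln3 held 1 and Vhl held none. The match of Egln3 began 229 bases before the start and those of Egln1 began 126 and 68 bases before it. Promoters were found for 9 of the 10 genes, and Egln2 had a pair of them, which made 10 windows, of which 7 held either motif and 4 held ACGTG. Of 32851 promoters in the same table, 38.6% held either motif and 16.6% held ACGTG in a window of that length, so that short cores of this kind are common. A match is a description of letters, and a window without one says nothing about binding elsewhere. Among the genes printed, the window with the most matches was that of Egln2, and the one with none was that of Vhl.

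Total counts were 52829185 to 68108470 per library, and 3 counts, about the upper 95% limit for an observed 0, came to 0.0447 to 0.0545 CPM (the floor). CPM stands for counts scaled to a common library total with TMM factors, a level "per kb" is CPM divided by the exonic length in the count table, and the floor covers counting error only. The label of osteocyte was held against 10 osteoblast and osteocyte markers, of which 7 were above the floor in some library of vehicle-treated osteocytes. Dmp1 was at 9.12 to 13.7 CPM and Phex at 50.6 to 62.9 CPM there, against 0.768 to 1.90 and 0.868 to 1.10 CPM in vehicle-treated MSCs and 1.39 to 2.42 and 2.06 to 3.78 CPM in FG-4592-treated osteocytes, whereas Sost was at 0 in all 12 libraries and Mepe was at 0 in the 6 osteocyte libraries. Between the cell types in vehicle, 4 of the 7 tested were higher in osteocytes (Dmp1, Phex, Bglap and Sp7), 2 were lower and Col1a1 was neither. The lower ones were Ibsp, at 34.0 to 37.2 CPM against 55.3 to 64.2 in MSCs, and Alpl, at 57.3 to 63.3 against 69.4 to 83.7. The summed level of this list, mostly Col1a1, lay between 2634 and 3667 CPM in all libraries. Of 6 progenitor markers, 5 were above the floor in MSCs, where Thy1 was at 0, and the same 5 were above it in vehicle-treated osteocytes. Their summed level was 755.4 to 765.7 CPM in MSCs and 714.1 to 756 CPM in osteocytes with vehicle, and 853.9 to 874.9 and 924.2 to 952.5 CPM with FG-4592, so that the list as a whole did not set MSCs apart. In vehicle Ly6a was lower in osteocytes (47.8 to 67.2 CPM against 195.1 to 226.5), whereas Nt5e (17.2 to 20.2 against 0.377 to 0.581) and Pdgfra (402.6 to 450 against 282.6 to 297.1) were higher. Adipocyte markers (Adipoq, Plin1, Lep and Cfd) were far higher in osteocytes: 3 of 4 were above the floor, Lep was at or under it, and their summed level was 1712 to 2421 CPM in osteocytes with vehicle and 1921 to 2224 CPM with FG-4592, against 7.94 to 8.58 and 3.04 to 3.32 CPM in MSCs. Of 6 blood and vessel markers, Adgre1 was at 0 in every library, and the summed level was 1.08 to 2.10 CPM.

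A gene is said here to have risen or fallen where the false discovery rate (FDR) of edgeR's quasi-likelihood test, adjusted over all genes tested, was under 0.05, and to have passed both cutoffs where its log2 fold change also exceeded 1 in size. After FG-4592, 2 of the 9 tested members rose in MSCs (Egln1 and Vhl), 2 fell (Hif1a and Arnt) and 5 did neither, among them Egln3, which was at the floor, against 17.6% of all genes tested that rose and 20.4% that fell. Both risers passed both cutoffs, which 9.29% of all genes did. In osteocytes 5 members rose (Egln1, Egln3, Hif1an, Vhl and Epas1), 2 fell (Hif1a and Arnt2) and 2 did neither, against 21.9% and 22% of all genes. There, 4 passed both cutoffs (Egln1, Egln3 and Vhl up, Arnt2 down), against 10.5% of all genes. Between the cell types in vehicle, 5 were higher in osteocytes (Egln1, Egln3, Vhl, Epas1 and Arnt2) and 2 were lower (Hif1an and Arnt), against 26% and 24.9% of all genes, and 3 passed both cutoffs, against 15.9%. Egln3 is in both counts, although its vehicle groups overlapped. In every comparison it passed the low-count filter only through the FG-4592-treated osteocyte libraries. Between the cell types in FG-4592, 4 were higher in osteocytes (Egln1, Egln3, Vhl and Epas1) and 1 was lower (Hif1a), against 30.5% and 25.3%, and 2 passed both cutoffs, against 18.3%. The median log2 fold change of the 9 members was 0.10 with FG-4592 in MSCs, 0.21 with FG-4592 in osteocytes, 0.40 between the cell types in vehicle and 0.29 in FG-4592, against −0.05, 0.00154, −0.0064 and 0.03 over all genes tested. With Egln3 left out in MSCs, where it has no fold change, the first of these was 0.096, and with Egln3 at its lower bound the others kept their values.

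**Figure D1:**
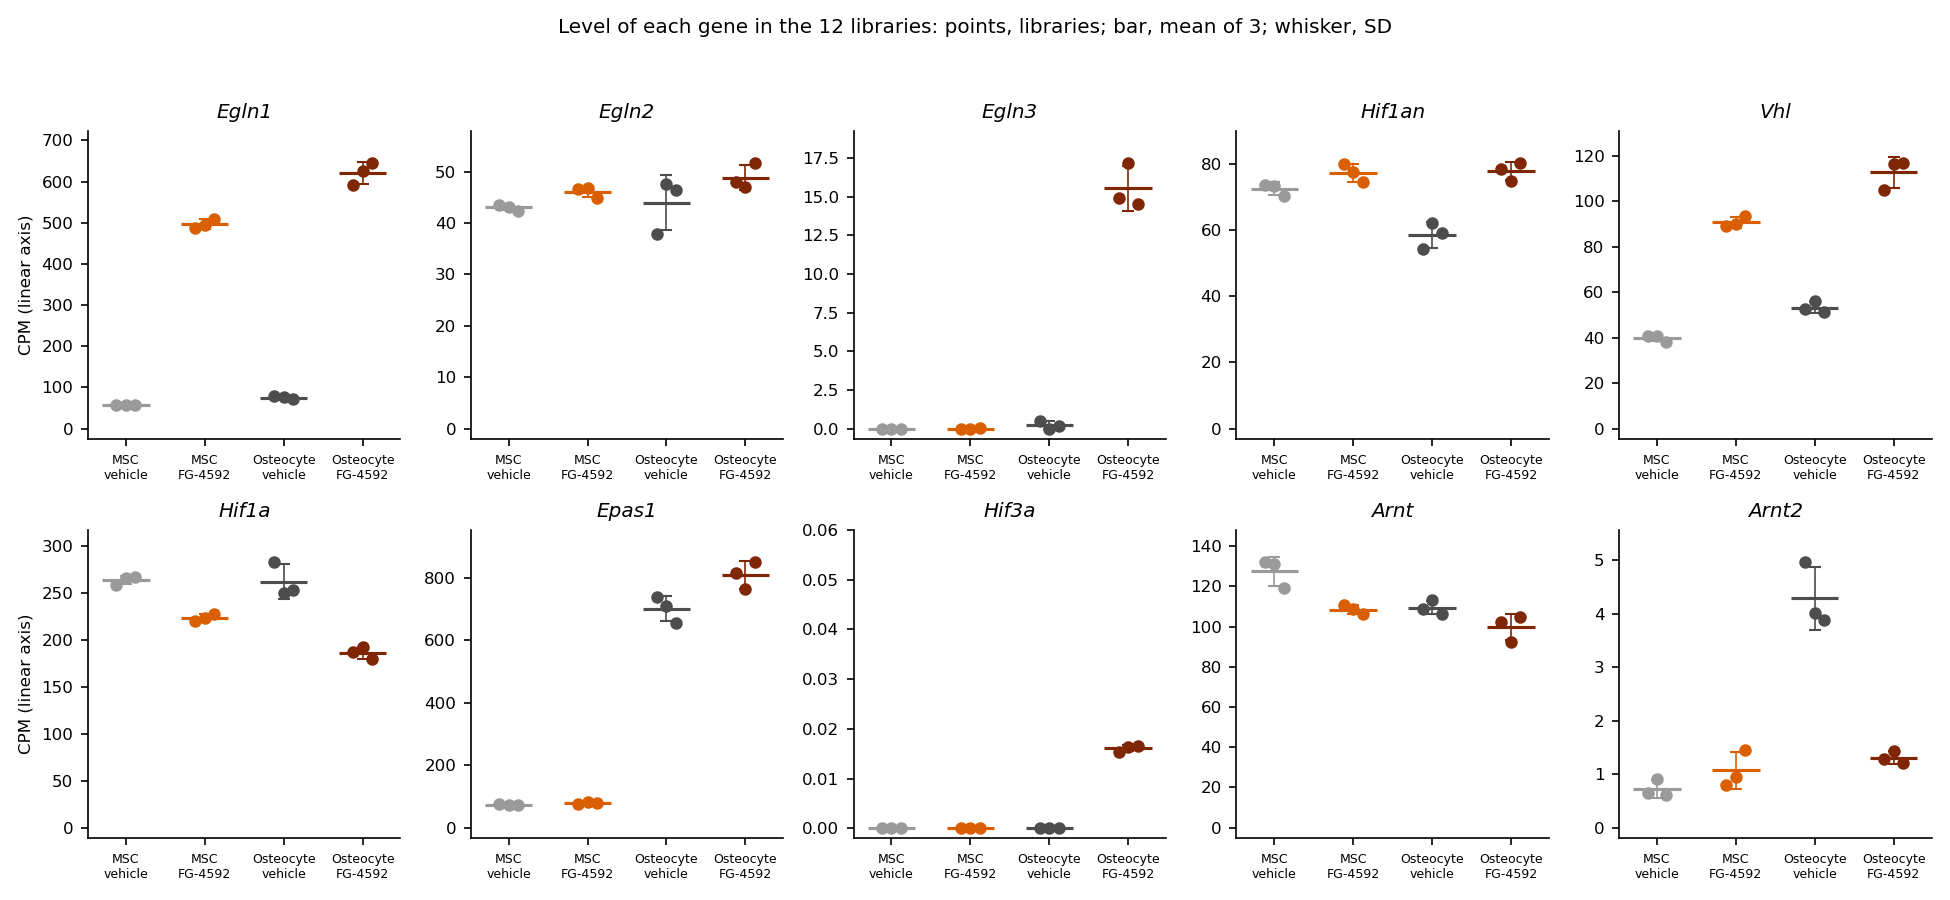
Level of the 10 genes in CPM (linear axes that differ between panels) in the 12 libraries, with 1 point per library, the mean of 3 as a bar and the SD as a whisker. Egln1 lies between 487.8 and 645.3 CPM in all FG-4592-treated libraries and between 56.7 and 78.7 CPM in all vehicle-treated ones, and Epas1 is high in every osteocyte library whatever the treatment.

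Egln1 (ENSMUSG00000031987.6, mm10 chromosome 8, 124908587 to 124949324, minus strand), which encodes PHD2, the main oxygen sensor of most cells, was at 56.7, 57.3 and 57.5 CPM in vehicle-treated MSCs and at 487.8, 493.6 and 510.0 CPM in FG-4592-treated MSCs. In osteocytes it was at 78.7, 75.8 and 72.5 CPM with vehicle and at 591.0, 625.5 and 645.3 CPM with FG-4592. The treated libraries of each cell type lay far above the vehicle libraries, and the osteocyte libraries lay above the MSC libraries under either treatment. With FG-4592, Egln1 rose 8.70-fold in MSCs (log2 fold change 3.12, SE 0.05, edgeR FDR 2.18e-16) and 8.21-fold in osteocytes (3.04, SE 0.05, FDR 2.62e-16), and its unadjusted p ranked 5 from the smallest of all genes in either cell type. By the size of the rise it ranked 155 in MSCs and 277 in osteocytes. The responses of the cell types differed by −0.08 on the log2 scale (95% interval −0.23 to 0.06, edgeR FDR 0.408 for the interaction). In vehicle, Egln1 was 1.32-fold higher in osteocytes than in MSCs (edgeR FDR 2.90e-06). Ranked by level per kb among all genes tested, it moved from 3011 to 260 with FG-4592 in MSCs and from 2229 to 202 in osteocytes.

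Egln2 (ENSMUSG00000058709.11, chromosome 7, 27158658 to 27166802, minus strand), the paralog that encodes PHD1, did not pass the test in any of the comparisons. Its levels were 43.5, 43.2 and 42.4 CPM in vehicle-treated MSCs, 46.6, 46.8 and 44.9 CPM in FG-4592-treated MSCs, 37.8, 47.6 and 46.5 CPM in vehicle-treated osteocytes and 47.9, 46.9 and 51.7 CPM in FG-4592-treated osteocytes. In MSCs the treated libraries lay just above the vehicle libraries, and in osteocytes the groups overlapped, with vehicle library 1 below the rest. The log2 fold change with FG-4592 was 0.10 in MSCs (95% interval −0.06 to 0.26, edgeR FDR 0.325) and 0.15 in osteocytes (−0.01 to 0.31, FDR 0.113). Between the cell types in vehicle it was 0.03 (edgeR FDR 0.762), and without vehicle-treated osteocyte library 1 it was 0.17 (FDR 0.0242). Without the same library the change with FG-4592 in osteocytes was 0.04 (edgeR FDR 0.665), so that both values turned on it. An exon of Egln2 shares 11 bases with Cyp2t4, which had at most 2 counts in a library.

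Egln3 (ENSMUSG00000035105.5, chromosome 12, 54178981 to 54203860, minus strand), which encodes PHD3, is the paralog best known for a strong response to hypoxia. It had 0, 0 and 0 counts in vehicle-treated MSCs and 0, 0 and 1 in FG-4592-treated MSCs, both at the floor, and no fold is given for MSCs. Vehicle-treated osteocytes had 33, 0 and 11 counts, and FG-4592-treated osteocytes had 969, 1051 and 879. These last came to 14.9, 17.2 and 14.5 CPM, against 0.497, 0 and 0.179 CPM with vehicle, and the treated libraries lay above all others. In osteocytes Egln3 rose 65.3-fold with FG-4592 (log2 fold change 6.03, SE 0.47, edgeR FDR 1.16e-07). The size depended on the vehicle libraries: the log2 fold change was 7.33 without vehicle-treated osteocyte library 1 and 5.48 without library 2, the one with no read. Between FG-4592-treated osteocytes and MSCs, 2899 counts stood against 1, a ratio of 2962 after scaling to library size, with an interval of 531 to 117000 that covers counting error only. Vehicle-treated osteocytes were on average at least 4.45-fold over the floor of a vehicle-treated MSC library, a bound that was 1.77 without library 1 and 6.68 without library 2. The edgeR FDR of 0.00334 belongs to the fit against vehicle-treated MSCs, a group at 0 counts, and not to this bound. Library 2 of the vehicle-treated osteocytes was itself at 0, so that the groups overlapped. Whether the response to FG-4592 differed between the cell types could not be tested for Egln3, because both MSC groups were at the floor.

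After 48 hours of FG-4592, Egln1 held most of the Egln mRNA and Egln3 little of it. The level per kb summed over Egln1, Egln2 and Egln3 was 31.1 to 31.4 in MSCs with vehicle and 152.4 to 158 with FG-4592. In osteocytes it was 35.6 to 38.1 with vehicle and 187.2 to 203.5 with FG-4592. Egln1 made up 50.9% ± 0.508 of this sum in MSCs with vehicle and 89.4% ± 0.417 with FG-4592, and 57.2% ± 3.75 and 88.1% ± 0.215 in osteocytes (SD, n = 3). The share of Egln2 went from 49.1% to 10.6% in MSCs and from 42.6% to 8.90% in osteocytes. Egln3 held 2.98% ± 0.297 of the sum in FG-4592-treated osteocytes and 0.236% ± 0.266 in vehicle-treated ones. For Egln1 and Egln2 the shares of the 3 treated and 3 vehicle libraries did not overlap in either cell type, and an exact two-sided permutation test gave p = 0.1 for each, which is the smallest that 3 against 3 can give.

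**Figure D2:**
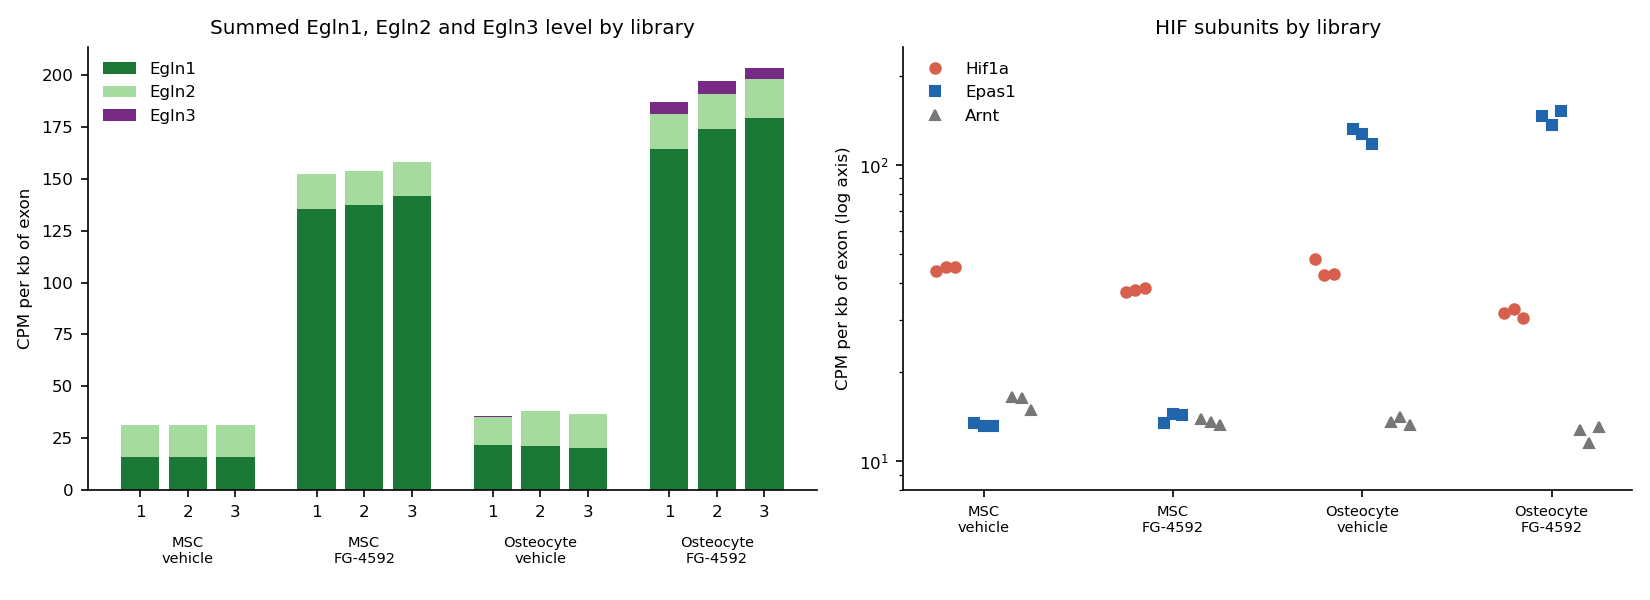
Left, level per kb (CPM per kb of exon, linear axis from 0) of Egln1, Egln2 and Egln3 stacked for each of the 12 libraries, numbered 1 to 3 within a condition. Right, level per kb of Hif1a, Epas1 and Arnt on a log axis, 1 point per library, where Epas1 lies below Hif1a in MSCs and above it in osteocytes.

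Vhl (ENSMUSG00000033933.13, chromosome 6, 113623959 to 113631633, plus strand), the substrate-recognition subunit of the ubiquitin ligase, rose in both cell types. It was at 40.7, 40.8 and 38.2 CPM in vehicle-treated and 89.0, 89.9 and 93.5 CPM in FG-4592-treated MSCs, and at 52.5, 56.1 and 51.3 CPM in vehicle-treated and 105.0, 116.5 and 117.0 CPM in FG-4592-treated osteocytes. No treated library overlapped a vehicle library, and each osteocyte group lay above its MSC counterpart. The rise was 2.28-fold in MSCs (log2 fold change 1.19, SE 0.06, edgeR FDR 8.87e-11) and 2.12-fold in osteocytes (1.08, SE 0.06, FDR 1.81e-10). The difference between these responses was −0.10 (95% interval −0.27 to 0.06, edgeR FDR 0.383). In vehicle, Vhl was 1.34-fold higher in osteocytes (edgeR FDR 1.23e-05). The change in osteocytes lay close to the cutoff of 1 in log2 and was 0.98 when library size alone was used for scaling, so that its place past both cutoffs rested on the scaling, whereas the FDR did not.

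Hif1an (ENSMUSG00000036450.4, chromosome 19, 44562850 to 44576274, plus strand) was at 73.8, 73.4 and 70.4 CPM in vehicle-treated MSCs and at 79.9, 77.7 and 74.4 CPM in FG-4592-treated MSCs. In osteocytes it was at 54.4, 62.2 and 59.2 CPM with vehicle and at 78.5, 74.7 and 80.3 CPM with FG-4592. Vehicle-treated osteocytes were thus the low group, and all other libraries lay between 70.4 and 80.3 CPM. Hif1an was lower in osteocytes than in MSCs in vehicle (log2 fold change −0.31, SE 0.06, edgeR FDR 0.000224) and rose with FG-4592 in osteocytes (0.41, SE 0.06, FDR 1.56e-05). In MSCs the change was 0.09 (edgeR FDR 0.214), or 0.12 (FDR 0.0472) when only those libraries were fitted. The response of osteocytes exceeded that of MSCs by 0.32 (95% interval 0.15 to 0.49, edgeR FDR 0.00721 for the interaction), and by 0.22 (FDR 0.036) without vehicle-treated osteocyte library 1. The comparisons with vehicle-treated osteocytes share those 3 libraries. In FG-4592 the cell types differed by 0.01 (edgeR FDR 0.896).

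Hif1a (ENSMUSG00000021109.13, chromosome 12, 73901375 to 73947530, plus strand), whose product is the widely expressed alpha subunit, had lower mRNA after FG-4592. Its levels were 258.9, 266.3 and 266.6 CPM in vehicle-treated MSCs and 220.1, 223.5 and 227.5 CPM in FG-4592-treated MSCs, 283.1, 250.2 and 253.1 CPM in vehicle-treated osteocytes and 186.8, 192.6 and 179.4 CPM in FG-4592-treated osteocytes. The treated libraries lay below all vehicle libraries of their cell type, and the vehicle groups of the cell types overlapped. The log2 fold change with FG-4592 was −0.24 in MSCs (SE 0.05, edgeR FDR 0.00144) and −0.49 in osteocytes (SE 0.05, FDR 8.43e-07), and the fall in osteocytes was deeper by 0.25 on the log2 scale (a difference of −0.25, 95% interval −0.41 to −0.10, edgeR FDR 0.0173). Between the cell types Hif1a differed by −0.01 in vehicle (edgeR FDR 0.892) and by −0.26 in FG-4592 (FDR 0.000357). Its exons share 330 bases with Gm15283 and 148 with Snapc1l, which had at most 6 and 0 counts.

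Epas1 (ENSMUSG00000024140.10, chromosome 17, 86753700 to 86833410, plus strand), which encodes HIF2α, the alpha subunit known from endothelium, kidney interstitium and fat, was the member that changed most with differentiation among those well above the floor in all 4 conditions. It was at 75.5, 73.3 and 73.4 CPM in vehicle-treated MSCs and 75.3, 80.7 and 80.2 CPM in FG-4592-treated MSCs, against 736.8, 710.3 and 656.0 CPM in vehicle-treated and 814.8, 762.4 and 850.4 CPM in FG-4592-treated osteocytes. All osteocyte libraries lay far above all MSC libraries. In vehicle the difference was 9.47-fold (log2 fold change 3.24, SE 0.06, edgeR FDR 4.93e-16, rank 10 by p) and in FG-4592 it was 10.3-fold (3.36, SE 0.06, FDR 1.96e-16). The summed level of the adipocyte markers given above also went from at most 8.58 CPM in MSCs to at least 1712 CPM in osteocytes, and their part in this result was not tested. In bulk RNA, fewer cells of a type and less RNA per cell cannot be told apart. With FG-4592, Epas1 rose in osteocytes (0.21, SE 0.05, edgeR FDR 0.00471) but not past the test with library size alone (0.11, FDR 0.132), and in MSCs the change was 0.09 (edgeR FDR 0.224, groups overlapping). The responses differed by 0.12 (edgeR FDR 0.294).

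The order of the main alpha subunits was opposite in the 2 cell types. Per kb, the level of Epas1 over that of Hif1a was 0.296 ± 0.0098 in MSCs with vehicle and 0.371 ± 0.0101 with FG-4592, and 2.82 ± 0.147 in osteocytes with vehicle and 4.59 ± 0.412 with FG-4592 (SD, n = 3). On the log2 scale the ratio was higher by 3.25 in osteocytes than in MSCs in vehicle, and FG-4592 raised it by 0.33 in MSCs and by 0.70 in osteocytes. None of these groups overlapped, and the exact two-sided permutation p was 0.1, the smallest possible, for each. The level per kb summed over both subunits was 57.4 to 58.4 in MSCs with vehicle and 50.8 to 52.9 with FG-4592, and it was 160.3 to 179.8 in osteocytes with vehicle and 169 to 182.6 with FG-4592. In osteocytes these ranges overlapped, with Hif1a down and Epas1 up.

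Hif3a (ENSMUSG00000004328.15, chromosome 7, 17031507 to 17062427, minus strand), an alpha subunit with inhibitory isoforms, had 0 counts in 9 of the libraries and 1 count in each of the 3 FG-4592-treated osteocyte libraries. All values were under the floor, so that no change was detectable at this depth.

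Arnt (ENSMUSG00000015522.18, chromosome 3, 95434388 to 95497240, plus strand), the shared partner of the alpha subunits and of Ahr, moved within a narrow range. It was at 132.2, 131.3 and 119 CPM in vehicle-treated MSCs, 110.8, 108.6 and 106.1 CPM in FG-4592-treated MSCs, 108.8, 113.0 and 106.4 CPM in vehicle-treated osteocytes and 102.1, 92.3 and 104.7 CPM in FG-4592-treated osteocytes. Vehicle-treated MSCs were the high group and did not overlap any other. Arnt fell with FG-4592 in MSCs (log2 fold change −0.23, SE 0.06, edgeR FDR 0.00349), and in osteocytes the change was −0.13 (FDR 0.0658). That last value passed the threshold with DESeq2 (−0.15), under each of the other scalings (down to −0.23 with library size alone), and without any 1 of the vehicle-treated MSC libraries, vehicle-treated osteocyte library 1 or FG-4592-treated osteocyte library 3, and it was −0.08 (FDR 0.303) without FG-4592-treated osteocyte library 2. In vehicle, Arnt was lower in osteocytes than in MSCs (−0.22, edgeR FDR 0.00366), a call that was lost without vehicle-treated MSC library 2 (−0.16, FDR 0.052). Per kb, Arnt stood at 0.275 ± 0.0175 of the summed Hif1a and Epas1 level in vehicle-treated MSCs and at 0.0806 ± 0.00436 in vehicle-treated osteocytes (SD, n = 3), without overlap. This ratio, like that of Egln to alpha subunits given later, was chosen after the levels were seen.

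Arnt2 (ENSMUSG00000015709.9, chromosome 7, 84246278 to 84410176, minus strand), the paralog of Arnt best known from neurons, was low throughout. It was higher in osteocytes than in MSCs in vehicle and fell with FG-4592 in osteocytes, but not in MSCs. It had 36, 55 and 39 counts in MSCs with vehicle and 48, 64 and 93 with FG-4592, and 330, 223 and 239 in osteocytes with vehicle and 83, 88 and 73 with FG-4592. In CPM the vehicle-treated osteocytes, at 4.97, 4.01 and 3.89, lay above every other library, and the other 9 libraries lay between 0.613 and 1.45. In vehicle Arnt2 was 5.88-fold higher in osteocytes (log2 fold change 2.56, SE 0.26, edgeR FDR 5.44e-07). With FG-4592 it fell 3.28-fold in osteocytes (−1.71, SE 0.25, edgeR FDR 2.96e-05), and in MSCs the change was 0.56 (FDR 0.116, groups overlapping), or 0.27 (FDR 0.485) without FG-4592-treated MSC library 3. These comparisons share the vehicle-treated osteocyte libraries. The difference between the responses was −2.27 (95% interval −3.04 to −1.50, edgeR FDR 0.000259), rank 176 from the largest negative difference. In FG-4592 the cell types differed by 0.29 (edgeR FDR 0.363), a value that was 0.12 without FG-4592-treated MSC library 1 and 0.57 without library 3. Other genes moved with FG-4592 in the same osteocyte libraries. Of the 7 tested osteoblast and osteocyte markers 6 fell, against 22% of all genes. Among them Phex (−4.35), Dmp1 (−2.44), Bglap (−1.28) and Sp7 were, like Arnt2, higher in osteocytes than in MSCs in vehicle. Ibsp (mean 35.6 to 12.2 CPM) and Alpl (61.0 to 34.4 CPM) fell too but were lower in osteocytes in vehicle. In MSCs, where Arnt2 did not fall, 5 of the 7 markers fell with FG-4592, among them Dmp1 (−2.44) and Phex (−1.53), against 20.4% of all genes. Of the 5 tested progenitor markers, 2 rose in osteocytes (Ly6a by 2.52 and Nt5e by 0.80), 1 fell (Pdgfra, −0.23) and 2 did neither. None of the 3 adipocyte markers tested rose or fell there. The part of these markers in the Arnt2 results was not tested. Exons of Arnt2 share 214 bases with Gm30873, which had at most 18 counts.

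**Figure D3:**
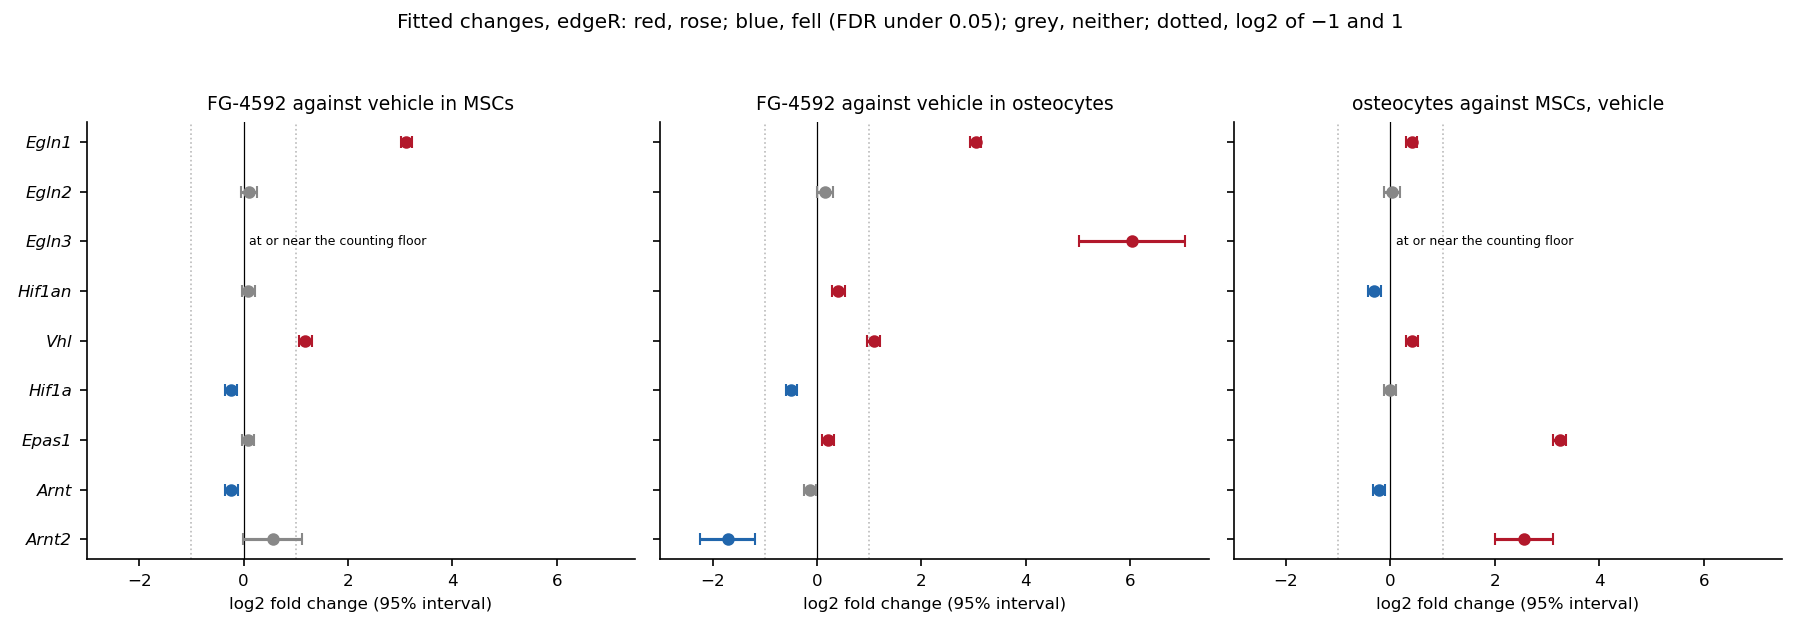
Fitted log2 fold changes of the 9 tested genes with their 95% intervals for FG-4592 against vehicle in MSCs, FG-4592 against vehicle in osteocytes and osteocytes against MSCs in vehicle (red, rose and blue, fell at an edgeR FDR under 0.05, grey, neither). Egln1 and Vhl lie to the right of the dotted line at 1 in both treatment panels, Arnt2 lies left of −1 with FG-4592 in osteocytes, and Egln3 carries a note in place of a point where a group was at the floor.

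Of the 8 members whose responses could be compared, Egln3 being at the floor in MSCs, 3 responded differently to FG-4592 in the 2 cell types by the interaction: Hif1an with a more positive response in osteocytes, and Hif1a and Arnt2 with a more negative one. Among all genes tested 13.3% differed upward and 11% downward. The 1 member past both cutoffs was Arnt2, against 5.01% of all genes. The median difference was 0.05 over the 9 members, −0.016 with Egln3 left out and 0.05 over all genes. For Egln1 and Vhl, which rose in both cell types, the intervals given above reach no further than 0.27 from 0 on the log2 scale. The differences that did not pass the test moved with single libraries: with each left out in turn, that of Egln1 was −0.14 to −0.06, that of Vhl −0.17 to −0.06, that of Epas1 0.06 to 0.15 and that of Arnt 0.03 to 0.15.

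Ordered by level per kb, vehicle-treated MSCs had Hif1a first at 44.8, followed by Arnt at 15.9, Egln1 at 15.9, Egln2 at 15.4, Vhl at 13.3, Epas1 at 13.3 and Hif1an at 10.98. The libraries of Arnt overlapped those of Egln1 and those of Egln2, so that Arnt was told apart from neither, whereas Egln1 and Egln2 did not overlap. Vhl and Epas1 overlapped and were not told apart. FG-4592-treated MSCs had Egln1 first at 138.3, then Hif1a at 37.9, Vhl at 30.3, Egln2 at 16.5, Epas1 at 14.1, Arnt at 13.6 and Hif1an at 11.7, with overlap between Epas1 and Arnt. Vehicle-treated osteocytes had Epas1 first at 125.4, then Hif1a at 44.5, Egln1 at 21.0, Vhl at 17.8, Egln2 at 15.7, Arnt at 13.7 and Hif1an at 8.87, with overlap between Egln2 and Arnt. In FG-4592-treated osteocytes Egln1 led at 172.7, before Epas1 at 144.8, Vhl at 37.7, Hif1a at 31.6, Egln2 at 17.4, Arnt at 12.4, Hif1an at 11.8 and Egln3 at 5.84, with overlap between Arnt and Hif1an. Arnt2 stayed at or below 0.646 per kb in every library.

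The ratio of prolyl hydroxylase to substrate mRNA, per kb, did not overlap between any of the 4 conditions. The summed Egln1, Egln2 and Egln3 level over the summed Hif1a and Epas1 level was 0.539 ± 0.00596 in MSCs with vehicle and 2.98 ± 0.0291 with FG-4592, and 0.217 ± 0.0172 in osteocytes with vehicle and 1.11 ± 0.0561 with FG-4592 (SD, n = 3). No test was run on this ratio. These are mRNA ratios and say nothing of enzyme activity, which FG-4592 inhibits.

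Slc2a1 (the glucose transporter GLUT1) and Vegfa, reference targets of HIF, rose with FG-4592 in these libraries, by 3.36 and 1.24 on the log2 scale in MSCs and by 3.50 and 2.71 in osteocytes (edgeR FDR at most 1.63e-10). The response of osteocytes exceeded that of MSCs by 1.47 for Vegfa (edgeR FDR 1.05e-08), and for Slc2a1 the difference was 0.13 (95% interval −0.04 to 0.31, edgeR FDR 0.283).

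Beyond the members, 32 partner genes of the pathway were listed, of which 27 were tested. With FG-4592, 8 rose, 3 fell and 16 did neither in MSCs, where 17.6% of all genes rose and 20.4% fell. In osteocytes 11 rose, 7 fell and 9 did neither, against 21.9% and 22% of all genes, and the median was 0.05 in each cell type. Between the cell types in vehicle, 4 were higher and 10 lower in osteocytes (median −0.08), against 26% and 24.9% of all genes. In FG-4592, 9 were higher and 11 lower, against 30.5% and 25.3%. The responses differed upward for 6 and downward for 4, against 13.3% and 11%. The lists within the 27 are too small to set against these shares. Of the 4 other subunits of the VHL ligase, none rose, and 2 (Eloc and Cul2) fell with FG-4592 in osteocytes. Of the 10 hydroxylase regulators and relatives, 4 rose and 2 fell in MSCs and 6 rose and 2 fell in osteocytes. Of the 6 genes of HIF protein stability, 2 rose and 1 fell in each cell type. Of the 5 coactivators and their regulators, 1 rose in MSCs, and 3 rose and 1 fell in osteocytes. Of 7 other bHLH-PAS factors 2 were tested (Ahr and Sim1).

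The partners past both cutoffs were Cited2, Cited4, Sim1 and Ahr. With FG-4592 these were 0 of the 27 tested in MSCs, against 9.29% of all genes, and 1 up and 1 down in osteocytes, against 10.5%. Between the cell types in vehicle 2 were higher in osteocytes and 1 was lower, against 15.9%. Cited2, which encodes a competitor of HIF for p300 and is itself a HIF target, was at 105.4 to 111.5 CPM in MSCs with vehicle and 168.0 to 177.7 CPM with FG-4592, and at 75.1 to 82.9 and 359 to 398 CPM in osteocytes. It rose with FG-4592 in both (log2 fold change 0.66, edgeR FDR 4.92e-08 in MSCs and 2.29, FDR 1.29e-14 in osteocytes), and the responses differed by 1.63 (FDR 4.67e-10). Cited4, a relative of Cited2, had 0 counts in all 6 MSC libraries, 105 counts over the osteocyte libraries with vehicle and 24 over those with FG-4592. Its fall with FG-4592 (−2.15, SE 0.70, edgeR FDR 0.0257) was lost without vehicle-treated osteocyte library 3 (FDR 0.0982), without FG-4592-treated osteocyte library 1 (FDR 0.0758) and without library 2 of that group (FDR 0.0848). In vehicle-treated osteocytes it stood on average at least 11.4-fold over the floor of an MSC library.

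Ahr, the aryl hydrocarbon receptor, which also pairs with ARNT, was lower in osteocytes, at 32.7 to 38.7 CPM against 74.5 to 78.5 CPM in vehicle-treated MSCs (log2 fold change −1.14, edgeR FDR 1.01e-07). It fell with FG-4592 in osteocytes (−0.35, FDR 0.0109, or −0.21, FDR 0.0421, without FG-4592-treated osteocyte library 3), and its rise in MSCs (0.28, FDR 0.0341) was lost without any of the 3 FG-4592-treated MSC libraries in turn (FDR up to 0.0803) and without vehicle-treated MSC library 2 (FDR 0.0525) or 3 (FDR 0.0611), as well as with upper-quartile factors (FDR 0.0569) and library size alone (FDR 0.124). Its responses differed by −0.63 (edgeR FDR 0.00394). Sim1, a bHLH-PAS factor of the hypothalamus, was at 0.557 to 2.18 CPM in vehicle-treated osteocytes and 0.0157 to 0.267 CPM in vehicle-treated MSCs (2.85, SE 0.61, edgeR FDR 0.000970), and the log2 fold change was 2.18 without vehicle-treated osteocyte library 3 and 3.38 without vehicle-treated MSC library 2.

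Some partners below the fold cutoff are named here after their values were seen. Siah2, a ubiquitin ligase subunit that targets the prolyl hydroxylases PHD1 and PHD3, rose in MSCs (0.88, edgeR FDR 0.000104) and osteocytes (0.53, FDR 0.00552). Its paralogs Siah1a (−0.27, edgeR FDR 0.00556) and Siah1b (−0.44, FDR 0.0198) fell in MSCs. In osteocytes the mean of Siah1b went from 5.04 to 3.54 CPM with FG-4592, and that of Siah1a from 20.3 to 20.8 CPM. Limd1, a scaffold that brings PHD2 and VHL together and is itself a HIF target, rose by 0.24 (FDR 0.00146) and by 0.50 (edgeR FDR 8.16e-07). Hsp90aa1, a chaperone of HIF1α, rose by 0.76 in MSCs (edgeR FDR 3.12e-08) and by 0.25 in osteocytes (FDR 0.00236), and the responses differed by −0.51 (FDR 0.000272). Cul2, the scaffold of the VHL ligase, fell by 0.31 in osteocytes (edgeR FDR 0.00102). The calls of the next genes depended on the processing or on 1 library. Os9, whose product promotes HIF hydroxylation, rose by 0.43 in osteocytes (edgeR FDR 1.88e-06), and its change of 0.14 in MSCs (FDR 0.0273) was lost with upper-quartile factors, library size alone, no filter or without FG-4592-treated MSC library 1 or 2 (edgeR FDR up to 0.368). Eloc, elongin C, fell by 0.32 in osteocytes (edgeR FDR 0.0144), a call lost without vehicle-treated library 3 (FDR 0.0626) or FG-4592-treated library 1 (FDR 0.0655). Ptges3, the cochaperone p23, changed by 0.19 in MSCs (edgeR FDR 0.0245), which was lost with library size alone (FDR 0.189), without vehicle-treated library 1 (FDR 0.0651) and without FG-4592-treated library 1 (FDR 0.115) or 2 (FDR 0.0699). In osteocytes Ptges3 changed by −0.20 (edgeR FDR 0.0152), lost without FG-4592-treated library 3 (FDR 0.0739), and its responses differed by −0.39 (FDR 0.00395).

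**Figure D4:**
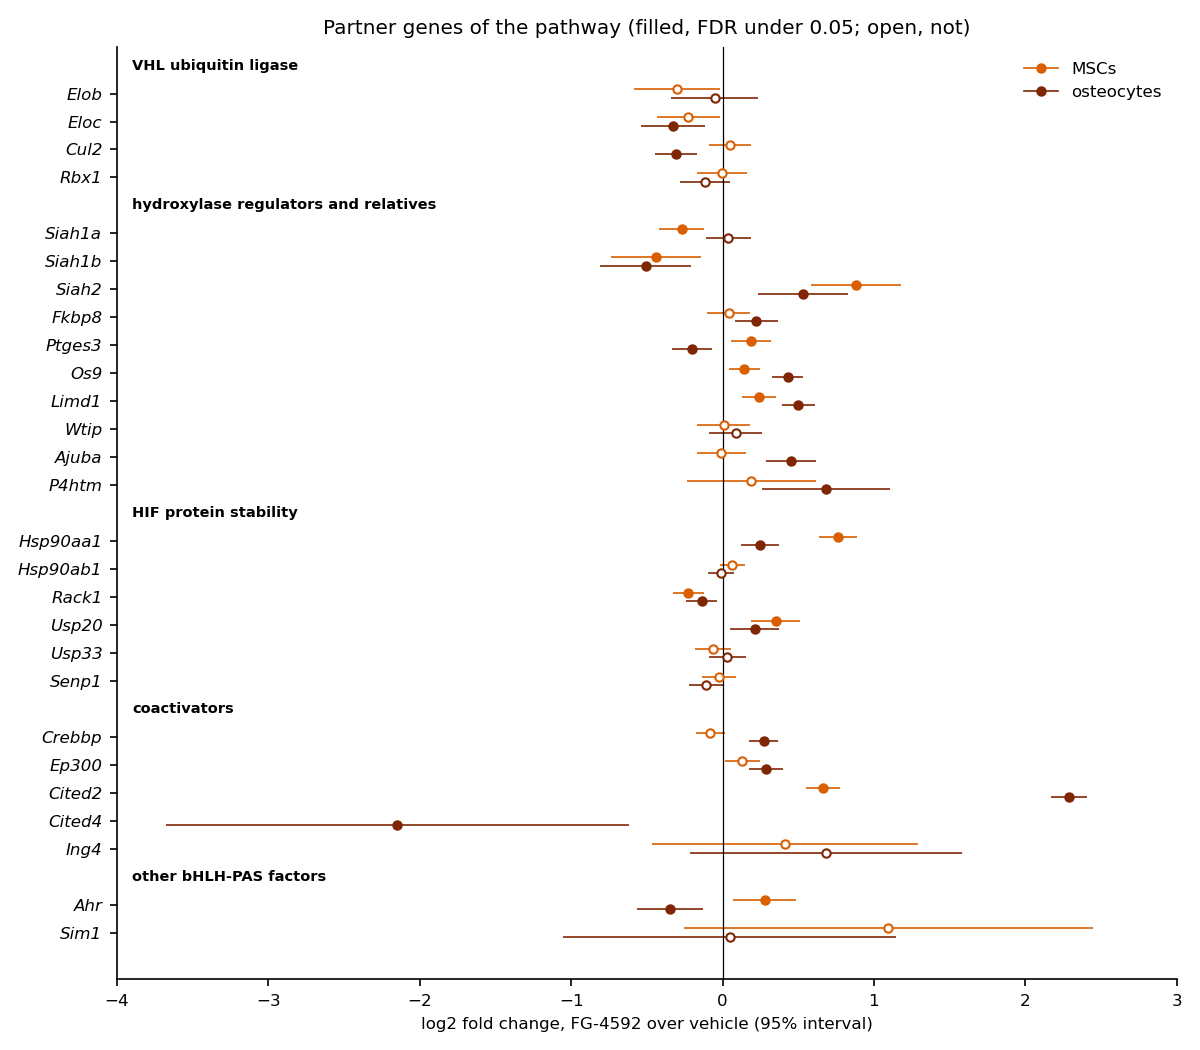
Log2 fold change with FG-4592 against vehicle, with 95% intervals, for the 27 tested partner genes in MSCs (orange) and osteocytes (brown), filled where the edgeR FDR was under 0.05. Most lie between −1 and 1, Cited2 lies at 2.29 and Cited4 at −2.15 in osteocytes, and Cited4 is not plotted in MSCs, where it had 0 counts.

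The genes whose log2 CPM followed a member most closely over the 12 libraries were found among the 11547 tested genes that averaged 100 counts or more, as a description in which all genes share the same libraries and the same 4 conditions. For Egln1 they were Gbe1 (Pearson r = 0.9994), Rora (0.9987) and Pfkl (0.9986), and for Hif1a they were Akap17b (0.9803), Brms1l (0.9777) and Dstn (0.9772). For Epas1 they were Adig (0.9974), Fbln5 (0.9973) and Ntn1 (0.9973), and for Egln3 they were Crebrf (0.9856), Ezh1 (0.9772) and Osmr (0.974). Adig is a gene of adipocytes, and its r was almost the same as those of Fbln5 and Ntn1. What these genes share with Epas1 was not tested.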

How the data were processed

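The authors sequenced mRNA libraries (KAPA mRNA HyperPrep, paired reads of 100 bases), mapped them to mm10 with STAR 2.7.2a and counted pairs on Gencode M22 genes with featureCounts (Subread 1.6.2), keeping reads mapped with a quality of 10 or above, with a pair counted for every gene it overlaps and no strand given. Because a pair counts for every gene it overlaps on either strand, genes with shared exonic bases share reads. The deposited counts were raw, not normalized. All 12 columns were mapped by title.

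The filter kept a gene where 3 libraries or more had over 10 counts for it, and edgeR 4.0.16 (R 4.3.3) was fitted to what remained (TMM factors 0.947 to 1.06, 1 coefficient per condition, 8 residual degrees of freedom, quasi-likelihood F test, Benjamini-Hochberg adjustment), the responses to FG-4592 being compared by an interaction contrast. Alternatives were the likelihood ratio test, DESeq2 1.42.0, other scalings and filters, only the libraries compared, a replicate block, removal of genes that share exonic bases (GenomicRanges 1.54.1) and each library left out. On data simulated for the osteocyte comparison (15844 genes) edgeR recovered 85 of 100 genes changed 1.5-fold and 100 of 100 changed 4-fold, with 9 false calls, and for the interaction (15852 genes) 37 and 100 of 100, with 5 false calls. The simulation gave all genes the same dispersion and changed only well-counted genes, only in FG-4592-treated osteocytes. All other genes were left unchanged, unlike in the real data, so that these rates do not carry over to the results above.

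Same-numbered libraries of different conditions did not deviate together (18 pairs, r from −0.135 to 0.0543), so the numbers were not taken to pair samples. The members, gene lists and tests were chosen with earlier results of these data known. Named were all members, the partners past both cutoffs, Slc2a1 and Vegfa, and for 4 members the 3 genes most like them. Log2 CPM for this used a prior count of 2. Siah2, Siah1a, Siah1b, Limd1, Hsp90aa1, Cul2, Os9, Eloc and Ptges3 were added after their values were seen.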

Additional observations from a re-analysis of the deposited data

Results flagged for a closer look

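For 3 members the response to FG-4592 differed between the cell types by the interaction contrast in edgeR, and these results are set apart for that reason. Of the 3, 1 differed upward and 2 downward, against 13.3% and 11% of all genes tested. Hif1an rose by 0.41 on the log2 scale in osteocytes and changed by 0.09 in MSCs, a difference of 0.32 (edgeR FDR 0.00721). Hif1a fell by 0.49 in osteocytes and by 0.24 in MSCs, a difference of −0.25 (edgeR FDR 0.0173). Arnt2 fell by 1.71 in osteocytes and changed by 0.56 in MSCs (0.27 without FG-4592-treated MSC library 3), a difference of −2.27 (edgeR FDR 0.000259). The FDR of the difference was 0.0446 at most for Hif1an, 0.0473 for Hif1a and 0.00102 for Arnt2 over the alternatives that kept the gene, since leaving out genes that share exonic bases removed Hif1a and Arnt2. In osteocytes every FG-4592-treated library lay on the same side of the vehicle-treated libraries for each of the 3 genes. This is no further support, since each gene had passed the FG-4592 test on these same libraries. Single libraries that stand apart were not looked for by a test, because groups of 3 are too small for it.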

How the results depend on the processing

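The total number of members called, both directions together, stayed within 1.5 times under every alternative in all comparisons but the response difference: without genes that share exonic bases, which removes Egln2, Hif1a and Arnt2 before the test, 1 member differed in response between the cell types in place of 3, and 0 in place of 1 passed both cutoffs. By direction the small counts moved more: the same removal left 0 of 2 that fell with FG-4592 in osteocytes and 1 of 2 in MSCs, and the gain or loss of Arnt took the number that fell with FG-4592 in osteocytes to 3, the number lower in osteocytes in FG-4592 from 1 to 2 and that in vehicle from 2 to 1. With the replicate block, 4, 7, 7, 5 and 3 members were called in the 5 comparisons, as without it, and the block changed no call of a member. Without division by exonic length, the share of Egln1 rose by 34.45 percentage points in MSCs and 27.43 in osteocytes in place of 38.5 and 30.9, that of Egln2 changed by −34.45 and −29.51 in place of −38.5 and −33.6, and that of Egln3 in osteocytes by 2.08 in place of 2.75, since longer genes weigh more. Values near 0 that changed sign, on the log2 scale, were Egln2 between the cell types in vehicle (−0.0065 with library size alone, −0.0104 to 0.17 with a library left out), the Egln2 response difference (−0.094 to 0.095 with a library left out, −0.00091 without vehicle-treated MSC library 1), Hif1a between the cell types in vehicle (−0.029 to 0.054 with a library left out) and Hif1an between the cell types in FG-4592 (−0.0052 with DESeq2, −0.0053 with RLE factors, −0.017 with upper-quartile factors, −0.040 with library size alone, −0.00023 with only the libraries compared, −0.017 to 0.049 with a library left out). None of these sign changes was called, and their cause was not tested. The other scalings in edgeR moved the median log2 fold change of all genes by −0.0976 at the most (library size alone). Depth limited Egln3 in MSCs and Hif3a, at or under the floor of 3 counts.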
